A study of Saccharomyces cerevisiae with 2 samples.

Results

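The genes described here encode the mevalonate pathway and the first committed step of sterol synthesis, which lead from acetyl-CoA to squalene in *Saccharomyces cerevisiae*. They were taken by ORF name and comprise ERG10 (YPL028W), ERG13 (YML126C), HMG1 (YML075C), HMG2 (YLR450W), ERG12 (YMR208W), ERG8 (YMR220W), MVD1 (YNR043W), IDI1 (YPL117C), ERG20 (YJL167W) and ERG9 (YHR190W), 10 of the 6207 ORFs in the deposited table. Of these 10 genes, 8 had a value in both replicates, and HMG1 and HMG2 were blank in both. Among all ORFs 50.2% had both values and 39.5% had none.

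The study compared caspofungin-treated with untreated cells of a wsc1 mutant of the laboratory strain BY4741 on 2-colour DNA microarrays. The treated cells had been exposed to 15 ng/ml of the drug for 2 h at 24 °C, and the untreated cells were the other part of the same divided culture, grown on without it. Caspofungin is an echinocandin, an inhibitor of the synthase of β-1,3-glucan in the cell wall, and WSC1 encodes a plasma membrane sensor of wall stress. Both RNAs on each array came from the wsc1 mutant, so no ratio here says what the mutation itself changes. WSC1 was blank in both replicates. The labels give neither the construction of the mutant nor the number of clones.

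The mevalonate pathway condenses acetyl-CoA to HMG-CoA, reduces this to mevalonate, and converts mevalonate to the activated isoprene units from which farnesyl diphosphate is built. Squalene synthase commits farnesyl diphosphate to ergosterol, the main sterol of the yeast plasma membrane. The same intermediates feed dolichol, the carrier of sugars for protein glycosylation, as well as ubiquinone, haem A and the lipid anchors of prenylated proteins.

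Each replicate gave 1 log2 dye ratio per ORF. The caspofungin RNA carried Cy3 in replicate 1 and Cy5 in replicate 2, with the untreated RNA in the other dye. The values of replicate 1 were multiplied by -1 to put the caspofungin RNA in the same place of both ratios, and every value below is after this turning unless said otherwise. Which dye is on top of the deposited ratio was not stated in the labels. If Cy5 is on top, a positive value means more RNA in caspofungin-treated than in untreated cells, and if Cy3 is on top it means less. The sides can thus be compared between genes, but neither can be called an increase. The labels mention 2 cultures and 4 arrays per condition without saying how the 2 deposited columns relate to them, so each SD and p-value covers the spread of 2 columns that may be technical repeats.

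The 8 measured genes lay on both sides, and the gene farthest from 0 was ERG10, at the entry of the pathway. The log2 ratio of ERG10 averaged -0.77 ± 0.33 (SD, n = 2 as for every mean here), a 1.71-fold difference, and ERG12 lay at the other end with 0.30 ± 0.32. On the negative side were 5 genes, ERG10, MVD1, IDI1, ERG20 and ERG9, and on the positive side were 3, ERG13, ERG12 and ERG8, where 47.9% and 52.1% of all tested ORFs lay. None of the 8 passed an adjusted p of 0.05 (limma, Benjamini-Hochberg over all ORFs), and 0 of the 3117 ORFs with both values did (0%). At an unadjusted p of 0.05 limma gave 2 of the 8, ERG10 and ERG20, against 13.4% of all tested ORFs. Both were negative, a side on which 7.76% of ORFs had such a p.

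**Figure D1:**
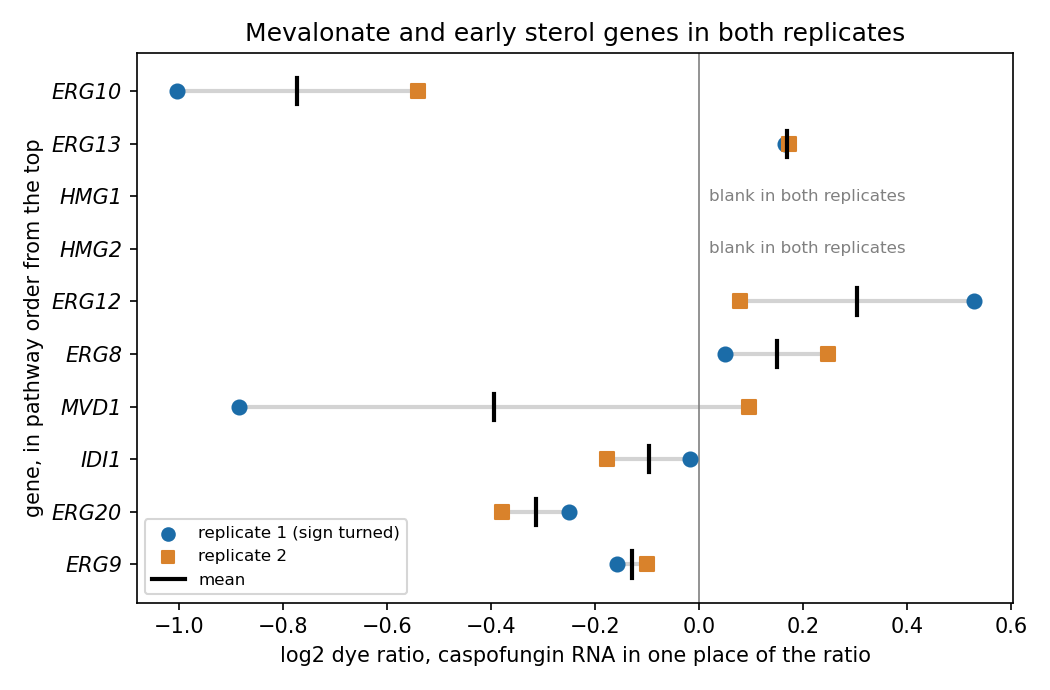
Log2 dye ratio of each gene (x axis) in replicate 1 with its sign turned (circles) and in replicate 2 (squares), with the mean as a bar and genes in pathway order from the top. ERG10 lies farthest to the left in both replicates, MVD1 is the only measured gene whose 2 values fall on opposite sides of 0, and HMG1 and HMG2 have no value.

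Mevalonate is made by the products of ERG10, ERG13, HMG1 and HMG2. ERG10 encodes acetyl-CoA acetyltransferase, which joins acetyl-CoA units to acetoacetyl-CoA. Its log2 ratio was -1.0 in replicate 1 and -0.54 in replicate 2, which are linear ratios of 0.498 and 0.687. Both values lay on the negative side, and the mean was the 61st in size of the 3117. The limma interval at 95% was -1.23 to -0.32, with an unadjusted p of 0.010 and an adjusted p of 0.366. The mean of ERG10 hardly moved when the columns were centred or scaled (-0.79 to -0.77), but its adjusted p did. ERG10 had an adjusted limma p of 0.059 with each column centred on the median of all its measured ORFs, where 1.38% of ORFs were called. The adjusted p was 0.013 with centring over the ORFs measured in both columns (3.69% called) and 0.0073 with columns centred over all measured ORFs and scaled to one spread (3.53% called). The prior on the spread that limma estimates moved along with these settings, at 2.64 degrees of freedom as deposited, 10.6 and 17.1 with centring, and infinite with scaling, where all genes share 1 spread. With columns centred over all measured ORFs but the prior estimated before centring, 0 ORFs were called (lowest adjusted p 0.399). Over the 7 other alternatives with a test, the adjusted p of ERG10 was between 0.0073 and 0.999. The 0.999 came from limma with the sign of replicate 1 kept as deposited, which no longer compares caspofungin with untreated RNA. The next highest was 0.656, with the plain one-sample statistic.

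ERG13 encodes HMG-CoA synthase, the next enzyme. It had 0.17 in both replicates, a mean of 0.17 ± 0.0047, and only 2.15% of the tested ORFs had replicates closer to each other. This value was small beside the spread that limma shares across genes, with an interval of -0.12 to 0.46 and an adjusted p of 0.481. ERG10 and ERG13 thus lay on opposite sides in both replicates. HMG1 and HMG2 encode the isozymes of HMG-CoA reductase, the rate-limiting enzyme of the pathway and the target of statins. As both were blank in both replicates, the controlled step of the pathway has no measurement, and a blank says nothing about the level of a gene.

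Mevalonate is turned into isopentenyl diphosphate by ERG12, ERG8 and MVD1, which encode mevalonate kinase, phosphomevalonate kinase and mevalonate diphosphate decarboxylase. ERG12 had 0.53 in replicate 1 and 0.079 in replicate 2, a mean of 0.30 ± 0.32 (adjusted p = 0.433). ERG8 had 0.050 and 0.25, a mean of 0.15 ± 0.14 (adjusted p = 0.569). Both kinase genes lay on the positive side in both replicates, but each replicate gave the greater value for a different one. MVD1 had -0.88 in replicate 1 and 0.096 in replicate 2, a mean of -0.39 ± 0.69 (adjusted p = 0.542). Its replicates differed by 0.98, a wider gap than in 96.0% of the tested ORFs, so its negative mean comes from replicate 1 alone. MVD1 was also the only gene of the pathway with another deposited value beyond 1 in size within 3 places of it in the table in replicate 1, that of COQ2. As deposited, COQ2 had -1.11 and MVD1 0.88, on opposite sides, and the part of this in the value of MVD1 was not tested. The table follows ORF names, so these places are not known positions on the array, and many neighbours of the other genes were blank.

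The isoprene units are isomerised by the product of IDI1, joined to farnesyl diphosphate by that of ERG20, and coupled to squalene by that of ERG9. IDI1, the isopentenyl diphosphate isomerase, had -0.017 and -0.18, a mean of -0.10 ± 0.11 (adjusted p = 0.698). ERG20, the farnesyl diphosphate synthase at the branch point to sterols, dolichol and prenyl anchors, had -0.25 in replicate 1 and -0.38 in replicate 2. Its mean of -0.31 ± 0.09 was a 1.24-fold difference, with a limma interval of -0.62 to -0.0061, an unadjusted p of 0.047 and an adjusted p of 0.372. ERG9, the squalene synthase, had -0.16 and -0.10, a mean of -0.13 ± 0.04 (adjusted p = 0.584). All 3 genes were on the negative side in both replicates, as ERG10 was. Their replicates differed by 0.058 to 0.159, less than those of ERG8, ERG12, ERG10 and MVD1.

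In order of the mean from the negative end, the genes were ERG10, MVD1, ERG20, ERG9, IDI1, ERG8, ERG13 and ERG12. The values of ERG10 overlapped only with those of MVD1, whose wide range also took in 5 others. ERG20 did not overlap with ERG9, its neighbour in this order, while ERG9 and IDI1 overlapped. IDI1 did not overlap with ERG8, the next gene. ERG8, ERG13 and ERG12 overlapped with each other and could not be put in order. With 2 replicates, such ranges describe these arrays and are no test of a difference between genes.

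The replicates had one sign in 7 of the 8 genes (87.5%), 4 of them negative and 3 positive, against 64.1% of all tested ORFs. The median of the 8 means was -0.11, against 0.01 for all tested ORFs. It was -0.09 in replicate 1 and -0.0099 in replicate 2. The median size of the mean was 0.24 for the pathway genes and 0.15 for all ORFs. No gene had a mean beyond 2-fold, which 0.962% of ORFs had with one sign in both replicates. At 1.5-fold there was 1, ERG10, against 4.04% of ORFs, and 3.3% on its side. The means of the other 7 lay between percentiles 5 and 95 of all tested ORFs.

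**Figure D2:**
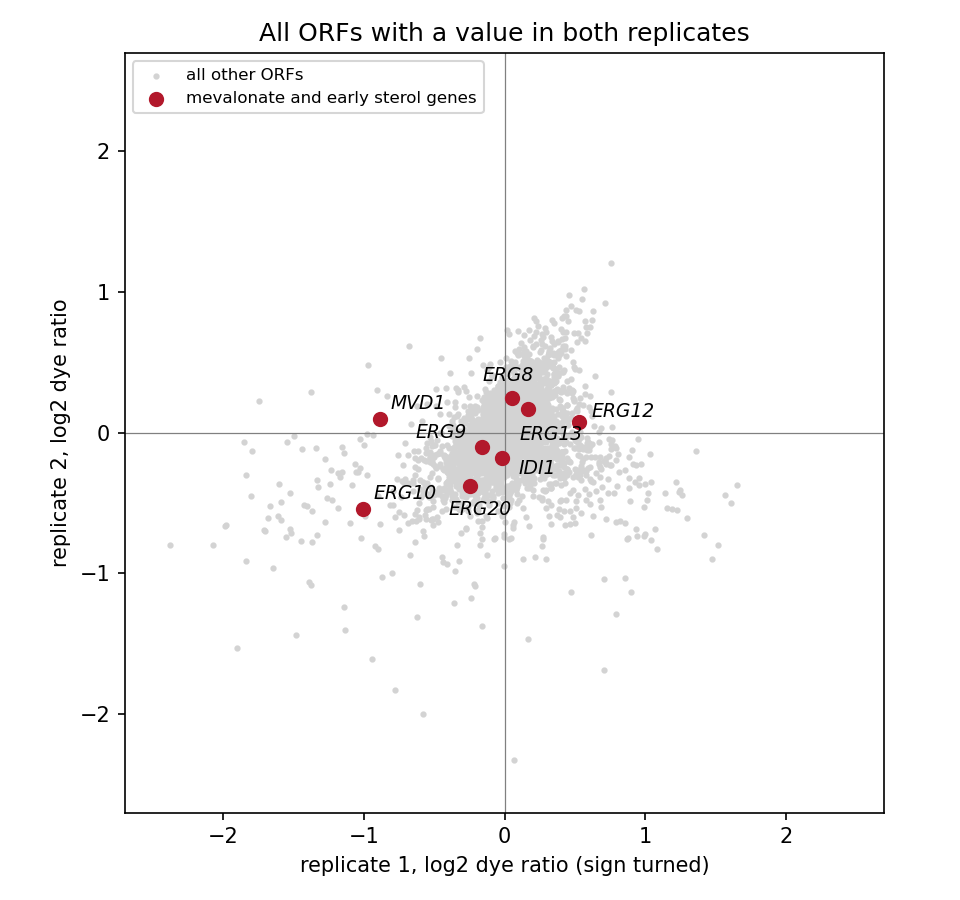
Log2 dye ratio in replicate 1 with its sign turned (x axis) against replicate 2 (y axis) for the 3117 ORFs with both values (grey), with the 8 measured mevalonate and early sterol genes in red. ERG10 stands at the lower left edge of the cloud, MVD1 stands left of it near 0 in replicate 2, and the other 6 lie within or at the border of it.

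The agreement of the replicates sets how far single values can be read. Across the 3117 ORFs, which are not independent, the turned replicates were correlated with a Pearson coefficient of 0.29 and a rank coefficient (Spearman) of 0.33, given as a description. The assumption behind the turning was held likely from the sign of this same correlation. That the coefficients are positive is thus no separate evidence of agreement. Replicate 1 was blank for 40.3% of ORFs and replicate 2 for 49.0%. The SD of the deposited values was 0.385 and 0.315 in these replicates. Signal over background is unknown for every gene named here, because the table holds ratios without intensities.

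The turning of replicate 1 matters for these genes to a differing extent. With its sign kept as deposited, ERG10 had a mean of 0.23, MVD1 0.49, ERG12 -0.22 and ERG9 0.03, each on the side opposite to that given above. ERG13 (0.0033) and ERG8 (0.10) stayed positive, and IDI1 (-0.08) and ERG20 (-0.06) negative. These means are the part of a ratio that kept its sign when the dyes were exchanged, and they hold dye effects and noise. For ERG10 this part was smaller than the turned mean (0.23 against -0.77), and for MVD1 it was larger (0.49 against -0.39). Both quantities come from the same 2 values and were not tested against each other.

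**Figure D3:**
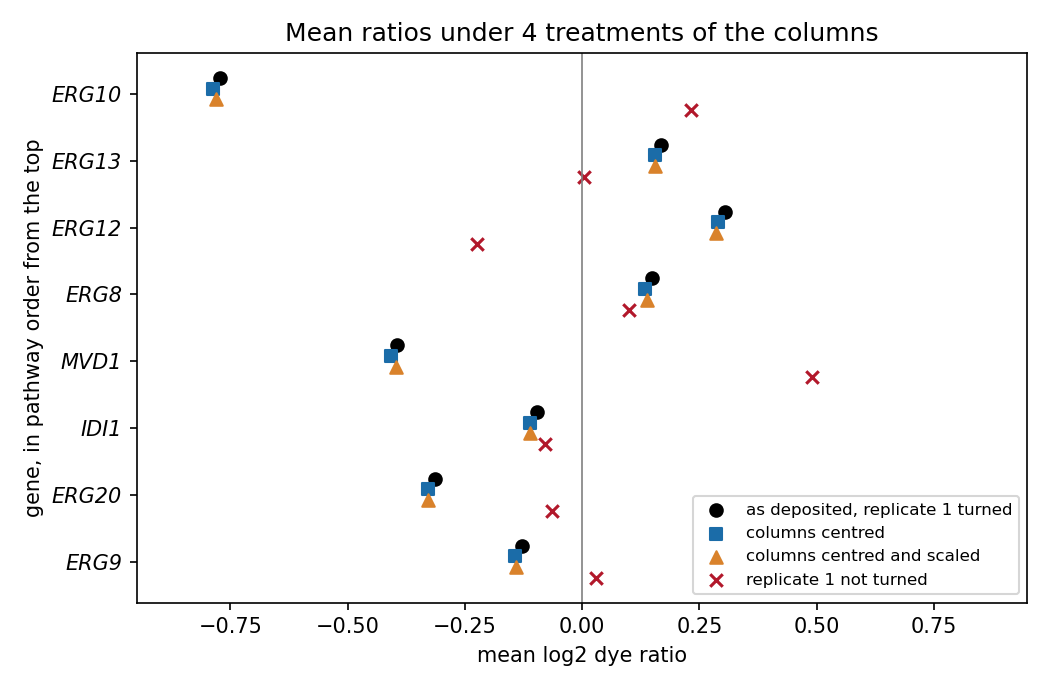
Mean log2 dye ratio (x axis) of the 8 measured genes, in pathway order from the top, under 4 treatments of the columns. Circles, squares and triangles lie close together for every gene, and the crosses, for which replicate 1 was not turned, lie on the other side of 0 for ERG10, ERG12, MVD1 and ERG9.

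Genes around the pathway were described as lists by role. No gene of these 6 lists passed the adjusted limma p of 0.05, as for all ORFs (0%). Acetyl-CoA is supplied outside mitochondria by ACS1 and ACS2 and drawn into fatty acids by ACC1. ACS2, the main acetyl-CoA synthetase on glucose, had -0.13 ± 0.19 (adjusted p = 0.628), and ACC1, the acetyl-CoA carboxylase, had -0.0024 ± 0.016 (adjusted p = 0.991). ACS1 was blank. ACC1, which shares the substrate of ERG10, and ACS2, which supplies it, were nearer to 0 than ERG10 was. So were most ORFs, as ERG10 was the 61st in size of the 3117.

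Of 15 genes for late sterol enzymes and their partners, which convert squalene to ergosterol, 10 were measured in both replicates, 6 positive and 4 negative. Their median was 0.10, with 0.12 in replicate 1 and 0.07 in replicate 2, against the -0.11 of the early genes. This difference between the lists was not tested. ERG28, a scaffold of the enzymes of sterol C-4 demethylation, had 0.38 and 0.43, a mean of 0.40 ± 0.03 (adjusted p = 0.366). ERG27, the keto reductase of the same complex, had -0.33 and -0.30, a mean of -0.31 ± 0.02 (adjusted p = 0.367). These 2 of the 10 lay on opposite sides and had an unadjusted p under 0.05, as did 13.4% of all tested ORFs. NCP1, the reductase that passes electrons to the sterol cytochromes P450, had 0.36 ± 0.75 with values of opposite sign, 0.89 and -0.17. ERG2, the sterol isomerase, had 0.35 ± 0.23 (adjusted p = 0.386). ERG24 and ERG5 were blank, and ERG7, ERG29 and ERG25 had 1 value each.

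**Figure D4:**
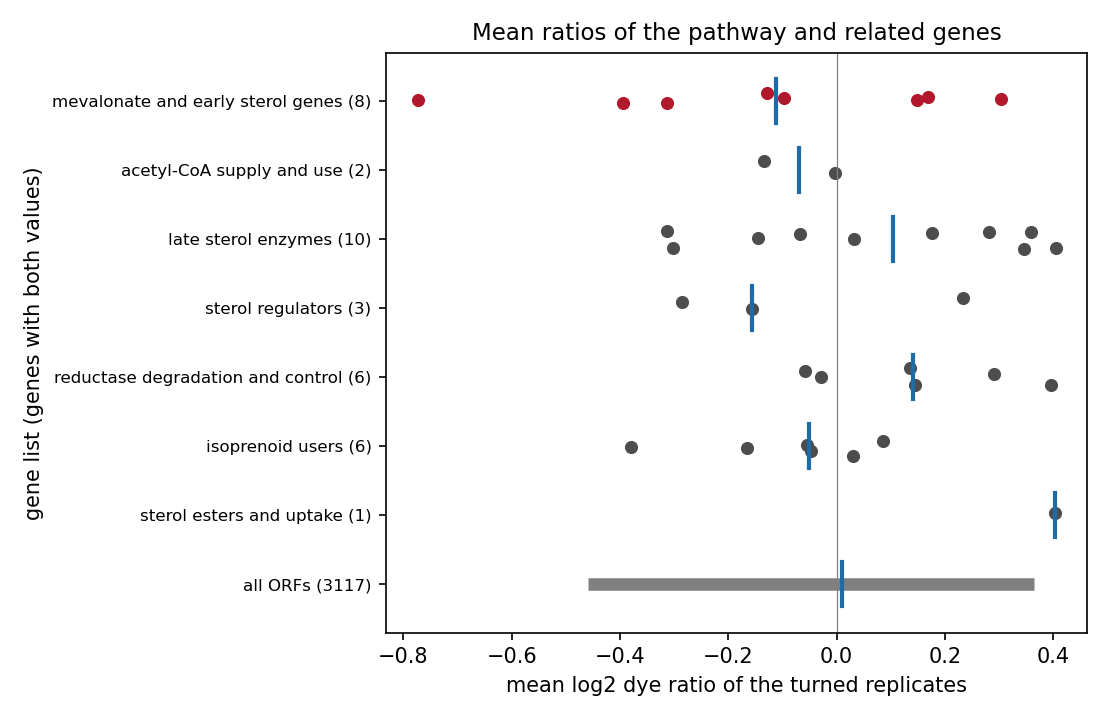
Mean log2 dye ratio (x axis) of each gene with both values, by list (y axis, number of genes in brackets), with the list median as a blue bar. The grey bar spans percentiles 5 to 95 of all ORFs, from -0.46 to 0.36, and ERG10 is the only early gene beyond it.

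The sterol regulators were sparsely measured. UPC2, the activator that senses ergosterol and drives many ERG genes, had -0.034 in replicate 1 and 0.50 in replicate 2, a mean of 0.23 ± 0.38 (adjusted p = 0.557). HAP1, a haem-responsive activator, had -0.0016 and -0.57, a mean of -0.29 ± 0.40 (adjusted p = 0.500). SUT1, a regulator of sterol uptake, had -0.16 ± 0.29 (adjusted p = 0.646). In all 3 the replicates lay far apart, and only HAP1 had the same sign in both. ECM22, the paralogue of UPC2, and MOT3 were blank, and ROX1 had a value in replicate 1 alone.

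The HMG2 isozyme of HMG-CoA reductase is destroyed through the endoplasmic reticulum ubiquitin ligase built on HRD1. NSG1 and NSG2 encode reductase-binding proteins. Of 10 genes on this list, 6 were measured, 4 positive and 2 negative, with a median of 0.14. UBC7, the ubiquitin-conjugating enzyme of this route, had 0.37 and 0.42, a mean of 0.40 ± 0.04 (adjusted p = 0.366). CUE1, its membrane anchor, had 0.17 and 0.41, a mean of 0.29 ± 0.17 (adjusted p = 0.397). UBC7 and CUE1 thus lay on the side opposite to ERG10 in both replicates, and no other gene of the 6 did. The replicates had one sign in 3 of the 6, against 64.1% of all tested ORFs. DFM1 had 0.14 ± 0.22 and NSG1 0.14 ± 0.20, each with replicates of opposite sign and one value near 0. HRD1, HRD3, USA1 and SPF1 were blank, as both reductase genes were.

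Of 16 genes whose products use isoprenoid diphosphates, 6 were measured, 2 positive and 4 negative, with a median of -0.05. BET4, a subunit of the enzyme that geranylgeranylates Rab GTPases, had -0.39 and -0.37, a mean of -0.38 ± 0.01 (adjusted p = 0.366). RER2, which elongates farnesyl diphosphate towards dolichol, had -0.16 ± 0.13 (adjusted p = 0.527). Both lay on the same side as ERG20, whose product they draw on directly or after further elongation. They are among the 4 of the 6 genes with a negative mean, and the other 2 lay opposite to ERG20. RAM1, of the farnesyltransferase, was on the side opposite to ERG20 with 0.09 ± 0.12, and DPP1, a lipid phosphatase, had -0.05 ± 0.10. In each of them the replicates differed in sign. BTS1, which encodes the geranylgeranyl diphosphate synthase, and CDC43, of a geranylgeranyl transferase, were blank, as were SRT1, MRS6 and MOD5. RAM2, COQ1, COQ2, BET2 and COX10 had a value in replicate 1 alone.

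Of 9 genes for sterol esters and uptake, only ARE1, a sterol acyltransferase, had both values, 0.76 and 0.043, with a mean of 0.40 ± 0.51 (adjusted p = 0.444). ARE2, YEH1, TGL1, AUS1, PDR11 and SAY1 were blank, and YEH2 and ATF2 had a value in replicate 1 alone.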

How the data were processed

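The authors deposited 1 log2 dye ratio per ORF and replicate, a scale read from the values; the labels give the dyes. Background correction, normalization, averaging of spots, the rule for blanks and the direction of the ratio were not stated (not given in the sources used here). Control entries (2) were left out. Replicate 1 was multiplied by -1 because the dyes were exchanged, on the assumption that both columns are the same dye ratio, as their correlation below 0 made likely. The 3117 ORFs with both values entered one fit in R 4.3.3 of limma 3.58.1, an intercept against 0 (lmFit, then eBayes), with two-sided p-values adjusted by Benjamini-Hochberg over all of them and a threshold of 0.05. The number of arrays limits the precision.

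Symbols came from RefSeq (assembly R64), which matched 5654 ORFs. No coordinates are given, since the deposited files name no build. Sequences were not available, so a planned search of promoters for motifs and a planned comparison of related proteins were not run. The genes, lists, and tests were chosen with earlier results of these data known. All pathway genes were named; of each list, up to 4 measured genes with the largest mean in size and blank genes were named. One planned list is not reported here. Simulated data had 3117 genes, of which 200 were changed by 2-fold or 4-fold in each of 20 draws. Their noise was drawn from the fitted prior, without column offsets or dye effects. There the fit called 77.0% of the genes with a 2-fold change and 97.4% with a 4-fold change. It also called on average 9.85 genes without a change in each draw. In the data, 30 ORFs had a mean beyond 2-fold with one sign in both replicates and 0 were called. The simulated shares are thus not the power of this experiment. Alternatives were turning, centring, scaling, the limma prior, a plain one-sample statistic, the filter on blanks, the fold and leaving out a replicate.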

Additional observations from a re-analysis of the deposited data

How the results depend on the processing

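The count of called ORFs, 0 as deposited, stayed 0 with the robust prior, the opposite turning, the plain one-sample statistic and the inclusion of ORFs with only 1 value. It was 43 with columns centred over all measured ORFs (41 negative), 110 when also scaled (96 negative) and 115 when centred over the ORFs measured in both (91 negative). Pathway genes called were 0 in the first of these and 1, ERG10, in each of the other two. When the centred columns were tested with the prior estimated before centring, 0 were called. That prior had 2.64 degrees of freedom, against 10.6 and 17.1 in the centred fits and an infinite number in the scaled one, where all ORFs share 1 spread. That exchange of priors and the centring over ORFs measured in both were chosen after seeing the data. ORFs beyond the fold threshold numbered 126 at 1.5-fold, with 1 pathway gene, against 30 and 0 at 2-fold. With the opposite turning 5 pathway genes were positive, against 3, and their median was 0.016. Means then changed sign for ERG10 (0.23), ERG12 (-0.22), MVD1 (0.49) and ERG9 (0.029), as did the medians of acetyl-CoA supply (0.072), sterol regulators (0.21) and sterol esters (-0.36). When each replicate was left out, the pathway median was -0.087 to -0.0099, MVD1 was -0.88 to 0.096, acetyl-CoA supply -0.14 to 0.0030 and sterol regulators -0.034 to 0.053; the cause was not tested. Of 78 comparisons of a list's count or median with an alternative, 64 kept their side and moved by less than 1 SD between replicates (medians) or 1.5 times (counts). These 64 include the counts of called genes, 0 in each setting where they were counted, and all comparisons with centring or scaling, which hardly shift the means. The lists were not counted with centring over the ORFs measured in both. The rest, 9 that moved and 5 that changed side, all came from the opposite turning or from leaving out a replicate. Each ratio already sets the caspofungin and the untreated RNA of its replicate against each other, so the fit against 0 was itself a paired comparison.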
